A study of Homo sapiens with 42 samples.

Results

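The comparison of SETD2 shRNA 1 with its control shRNA rests on 2 lists of m6A peaks, and it asks where called m6A sites disappeared, stayed or appeared when the histone methyltransferase SETD2 was targeted by a short hairpin RNA (shRNA). The peaks were those of the pooled SETD2 shRNA 1 table and of the pooled control table, each counted once per strand and set of blocks, the blocks being the exonic pieces of a peak. They numbered 62317 of the 211410 peaks in the 7 lists of the series, with 28645 in the SETD2 shRNA 1 list and 33672 in the control list. A control peak was lost when no same-strand SETD2 shRNA 1 peak shared at least 1 block base with it, and a SETD2 shRNA 1 peak was gained when no control peak did.

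All cells were HepG2, an established human hepatocellular carcinoma line. They expressed an shRNA against SETD2, in the first of 2 versions, or a non-specific control shRNA, delivered by lentivirus and kept under puromycin selection in both. Each condition had 3 immunoprecipitated (IP) libraries made with an m6A antibody and 3 input libraries without it, and the authors joined these 6 in 1 peak call. The series also holds METTL3, METTL14 and WTAP shRNAs, which share the same control, and a second SETD2 shRNA with a second control of its own, for 42 libraries in all.

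N6-methyladenosine (m6A) is placed on nascent messenger RNA by a complex in which METTL3 carries the catalytic activity, METTL14 helps to bind the RNA and WTAP holds the complex in nuclear speckles. Its usual sites lie around stop codons, in 3′ untranslated regions and in long exons, and antibodies against it also bind m6Am, a related mark next to the cap at the 5′ end. SETD2 writes trimethylation of lysine 36 on histone H3, a mark of the bodies of transcribed genes that the METTL14 protein can bind.

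The tables name genes by Ensembl identifiers without symbols, so peaks are given by their hg19 position, and functions, transcript regions, sequence motifs, the SETD2 transcript and liver markers were not analysed here. The labels number the libraries 1 to 3 without saying whether these were separate cultures, and read depth per library is unknown. With 1 list per condition there is no replicate error and no test between conditions, and the 95% intervals below (exact Clopper-Pearson) cover counting error only. A called peak needs the transcript as well as the mark, so fewer transcripts, fewer cells with the transcript and less methylation cannot be told apart.

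The balance of change was towards fewer peaks. Of the SETD2 shRNA 1 peaks, 2312, or 8.07% (7.76 to 8.39%), were gained. Of the control peaks, 9095, or 27.0% (26.5 to 27.5%), were lost and 24577 were kept. At the level of genes, 494 of 12862 SETD2 shRNA 1 genes, or 3.84%, had no control peak, and 2202 of 14570 control genes, or 15.1%, had no SETD2 shRNA 1 peak.

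Loss was mostly partial within a gene. Every peak was kept in 8031 control genes (55.1%), some were lost and some kept in 4231 (29.0%), and every peak was lost in 2308 (15.8%). For 68.7% of the lost peaks, the SETD2 shRNA 1 list held another peak of the same gene. A lost and a gained peak occurred together in 710 genes (4.87%). Most genes left without a peak had little to lose: 1715 of the 2202 had had 1 control peak and 368 had had 2. Of all 14570 control genes, 5974 (41.0%) had 1 peak and 3795 had 2. The share of peaks lost varied little with the number of control peaks in a gene, from 24.6% in genes with 7 to 29.9% in genes with 1.

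Lost peaks were weak, short and seldom spliced. Their median fold enrichment, the authors' linear ratio of IP over input, was 4.63 in the control list, against 7.57 for kept peaks. Their median log10 p, the authors' value for IP against input, was -3.87, against -22.8 for kept peaks. Their median length was 151 bases, against 330 bases for kept peaks, and 76.0% consisted of a single block, against 55.7% of kept peaks. Gained peaks were of the same kind, with a median fold enrichment of 3.78, a median log10 p of -3.44 and a median length of 120 bases. The SETD2 shRNA 1 peaks shared with the control had 5.43, -13.4 and 269 bases.

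Losses were ordered steeply by p-value. The largest listed FDR was 0.0501 for SETD2 shRNA 1 and 0.0490 for the control, so regions with a poorer FDR were not listed. A lost or gained peak is thus one without a call within that limit in the other list. When each list was divided into 5 equal classes by p-value, gained peaks made up 0.105% of the best class of SETD2 shRNA 1 peaks and 25.7% of the worst. Lost peaks made up 0.238% of the best class of control peaks, 16.5% of the middle class and 70.6% of the worst. That best class of the control held 6735 peaks, of which 16 were lost.

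**Figure D1:**
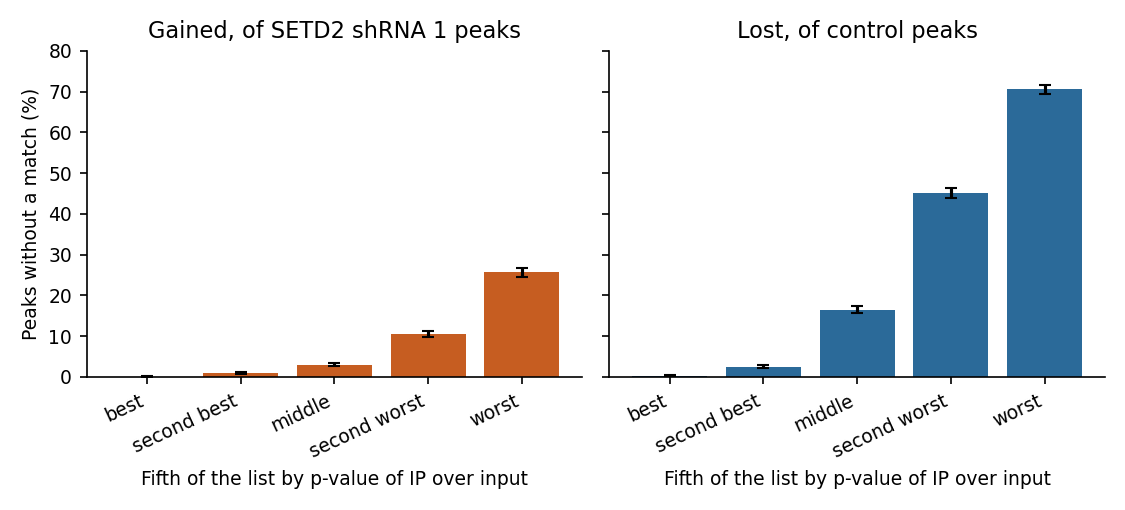
Share of peaks without a same-strand match in the other list (percent, y axis) in 5 equal classes of each list by p-value (x axis, best to worst), with exact 95% intervals. Gained peaks of the SETD2 shRNA 1 list reached 25.7% in the worst class, and lost peaks of the control list reached 70.6%.

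Differences by structure and position were smaller among peaks of like p-value. Over all classes, 33.6% of control peaks with 1 block were lost, 21.4% of those with 2 and 8.38% of those with 3 or more. Within the middle class these shares were 17.3%, 16.8% and 12.2%. The 5′-most peak of a gene with several peaks was lost in 29.9% of cases, internal peaks in 26.7%, the 3′-most peak in 22.5% and the only peak of a gene in 29.9%. Within the middle class the 4 shares were 15.2%, 17.3%, 17.2% and 16.1%, so the order by position was not seen there.

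In the 3795 genes with 2 control peaks, both were kept in 2142, only the 5′ peak was lost in 741 (19.5%), only the 3′ peak in 516 (13.6%) and both in 396. The 3′ peak was lost in 34.8% of genes that lost the 5′ peak, against 19.4% of genes that kept it. Peaks of 1 gene share its transcript level, and the part of that in these shares was not tested.

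Few lost peaks lay within 100 bases of another call, though more did within 1000. Along the genome, 4.74% of them lay within 100 bases of a same-strand SETD2 shRNA 1 peak, 24.0% within 500 and 32.4% within 1000 bases, with a median distance of 5240 bases. For gained peaks these shares were 9.60%, 30.7% and 40.7%, with a median of 2292 bases to the nearest control peak. Only 1.82% of gained peaks had a control peak on the opposite strand, and 1.52% of lost peaks had a SETD2 shRNA 1 peak there.

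Of the gained peaks, 1765 (76.3%) lay in genes with a control peak and 547 (23.7%) in genes without one. Counted by gene, 3.84% of all SETD2 shRNA 1 genes had no control peak. Among the 1765, 481 (27.3%) lay 5′ of every control peak of the gene, 572 (32.4%) 3′ of every control peak and 712 (40.3%) within their span. Those on the 5′ side had a median fold enrichment of 5.51, above the 2.67 of those on the 3′ side, although their p-values were no better, with a median log10 p of -3.12 against -3.72. This was not particular to gained peaks. In the worst p-value class of all control peaks, 5′-most peaks had a median fold enrichment of 6.86 and 3′-most peaks 3.57.

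The second control gave an outside view of the same positions. It held a peak at 28.8% of gained peaks, against 82.8% of the SETD2 shRNA 1 peaks shared with the control. It held a peak at 3497 (38.4%) of the lost peaks, against 83.7% of the kept ones. Most lost peaks were thus also absent from a list made without a SETD2 shRNA. Over all control peaks, 28.6% (28.1 to 29.0%) had no second control peak, a share as large as the 27.0% lost in SETD2 shRNA 1. Of the 16891 control peaks with a p-value no worse than the list's median, 547 (3.24%) were lost. Among these, 315 in 310 genes also had a peak in the second control.

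Much of the lost peak length came from peaks that were kept but shortened. Block bases amounted to 9458 kb in the SETD2 shRNA 1 list, of which 92.7% were shared with the control, 4.21% extended shared peaks and 3.06% belonged to gained peaks. In the control list they amounted to 12234 kb, of which 71.7% were shared, 16.5% belonged to kept peaks but lay outside SETD2 shRNA 1 peaks and 11.9% belonged to lost peaks. Trimming of kept peaks therefore removed more bases than loss of whole peaks did.

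Trimming was the same at both ends over all peaks, and differed between them by place in the gene. Among 19993 peaks matched 1 to 1, the median length was 261 bases in SETD2 shRNA 1 and 301 bases in control. The 5′ end was cut back in 48.9% and the 3′ end in 49.0%. The 5′-most peak of a gene was cut back more often on its 3′ side, in 55.1% of cases, than on its 5′ side, in 47.8%. For the 3′-most peak the sides were reversed, with 50.9% cut back on the 5′ side and 44.6% on the 3′ side. The facing sides of these outer peaks were thus trimmed more than the sides towards the transcript ends. Of 8592 matched peaks with several blocks in the control, 29.8% had fewer blocks in SETD2 shRNA 1 and 3.36% had more. Matched peaks with a single block in the control, which could not have fewer, were left out. The choice of peaks thus favours the first of these shares.

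Among the peaks that stayed, the 5′-most peak of a gene weakened most. Matched peaks had a median log2 ratio of fold enrichment, SETD2 shRNA 1 over control, of -0.34 (quartiles -0.86 and 0.08). Of the 19993, 20.8% were at least 2-fold lower in SETD2 shRNA 1 and 3.48% at least 2-fold higher. Fold enrichment is relative to each condition's own input and IP, so the common shift of -0.34 depends on both lists as a whole. Differences between positions are taken within the same pair of lists, but they too varied between pairs, that of both controls included (below). This contrast was chosen after the data were examined.

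The 4867 matched 5′-most peaks had a median fold enrichment of 6.41 in SETD2 shRNA 1 and 11.1 in control, a median log2 ratio of -0.64. The 5499 3′-most peaks had medians of 4.72 and 5.59, a log2 ratio of -0.21. Internal peaks had a log2 ratio of -0.28 and only peaks of a gene -0.42. At least 2-fold lower were 35.8% of 5′-most peaks, 14.8% of internal peaks, 10.9% of 3′-most peaks and 26.2% of only peaks, against the 20.8% of all matched peaks. The quartiles of the 5′-most peaks, -1.35 and -0.06, both lay below 0, while those of the 3′-most peaks were -0.58 and 0.14.

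The 5′-most peaks started from a higher enrichment, so the positions were also compared among peaks of like enrichment. In 5 classes of the geometric mean of both fold enrichments, from low to high, the median log2 ratio of 5′-most peaks was -0.16, -0.46, -0.65, -0.78 and -0.95. That of 3′-most peaks was -0.07, -0.20, -0.28, -0.34 and -0.42. The 5′-most peaks were lower in each class, and the gap widened with enrichment. In the highest class 48.8% of 5′-most peaks and 24.4% of 3′-most peaks were at least 2-fold lower. Where the blocks were identical in both lists, so that the boundaries could not differ, 25.4% of 725 5′-most peaks and 7.20% of 792 3′-most peaks were at least 2-fold lower.

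The step came after the first peak. In genes with 5 control peaks, counted from the 5′ end, 38.4%, 19.3%, 14.0%, 11.6% and 11.4% of matched peaks were at least 2-fold lower. In genes with 3 control peaks the shares were 37.4%, 14.0% and 10.4%. The median fold enrichment in the control fell after the first peak too, with 11.1, 5.57, 4.79, 4.49 and 5.4 along the genes with 5 peaks. These 2-fold shares by place were not compared among peaks of like enrichment. The share of peaks lost outright fell more gently along the genes with 5 peaks, and was 30.9% at the first place and 18.4% at the last. These lost shares were not compared among peaks of like p-value. Over all genes with several peaks, the middle p-value class had 15.2% of 5′-most and 17.2% of 3′-most peaks lost.

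**Figure D2:**
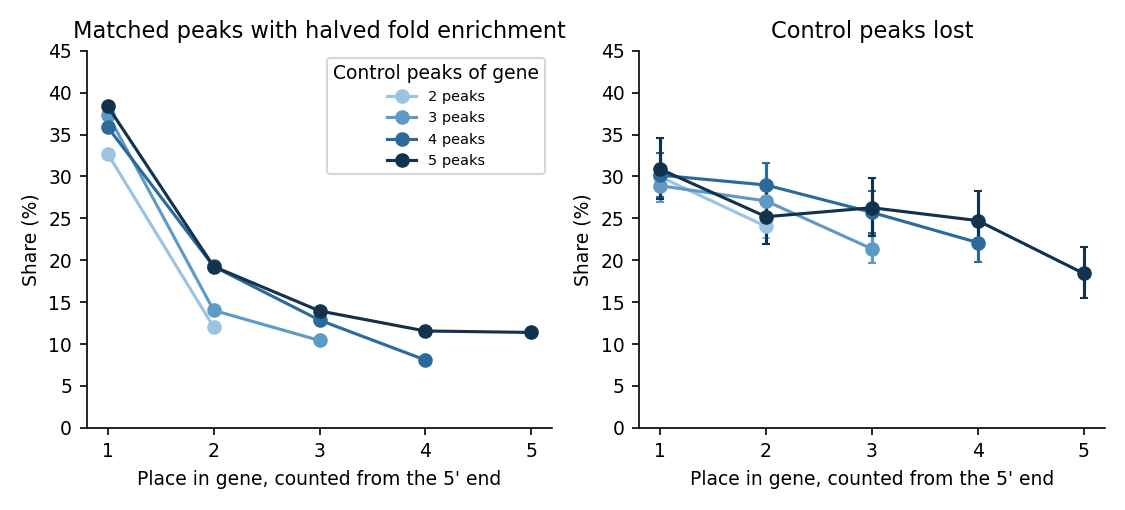
Share of matched peaks with fold enrichment at least 2-fold lower in SETD2 shRNA 1 (left) and share of control peaks lost (right, exact 95% intervals), both in percent, by place of the peak from the 5′ end, for genes with 2 to 5 control peaks. In genes with 5 peaks the left share was 38.4% at the first place and 19.3% at the second.

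Gene by gene, the outer peaks of 5104 genes with at least 2 matched peaks could be compared. The 5′ peak had the lower log2 ratio in 3213 of them (63.0%), and the median difference, 5′ minus 3′, was -0.35. In 28.2% the 5′ peak alone was at least 2-fold lower, in 6.94% the 3′ peak alone, and in 3.78% both. The ratios of the outer peaks of a gene were nearly unrelated across genes (Pearson r 0.0536, a description, since peaks of a gene share its libraries and genes are not replicates).

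The other lists, which share libraries only as stated, gave values for the same measure. In SETD2 shRNA 2 over the second control, with no library in common with the lists above, the median log2 ratio was -0.40 for 5′-most and -0.02 for 3′-most peaks, and 27.4% and 4.53% were at least 2-fold lower. The pair of controls differed more in general: the second control over the control had a median of -0.53 over all matched peaks, with 32.1% at least 2-fold lower, against -0.34 and 20.8% in SETD2 shRNA 1 over control. By position it gave -0.49 for 5′-most and -0.52 for 3′-most peaks, with 32.9% and 30.0% at least 2-fold lower. The 35.8% of 5′-most peaks in SETD2 shRNA 1 thus lay close to the share between the controls, and the 10.9% of 3′-most peaks lay below it. Over the same control list as SETD2 shRNA 1, METTL3 had medians of -0.19 for 5′-most and -0.07 for 3′-most peaks, with 18.1% and 6.96% at least 2-fold lower. METTL14 had -0.34 and -0.27 (25.6% and 15.1%), and WTAP had -0.29 and -0.36 (23.1% and 16.5%). In the class of highest enrichment the second control over the control gave -0.72 for 5′-most and -1.47 for 3′-most peaks, a position difference in the opposite direction. In that class METTL3 had -0.24 and 0.08. METTL14 had -0.56 and -0.11 there, and WTAP had -0.30 and -0.08, so lower values at the 5′-most peaks of this class were found in those knockdowns too. No test between these comparisons was possible.

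**Figure D3:**
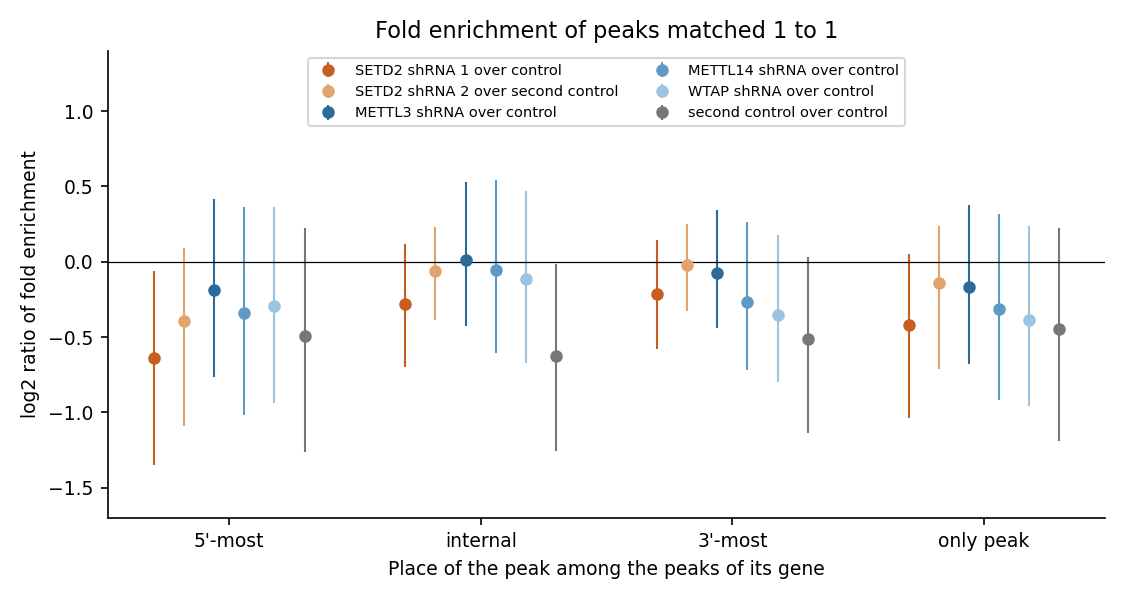
Median log2 ratio of fold enrichment of peaks matched 1 to 1 (points, y axis) with quartiles (lines) by place of the peak in its gene (x axis) for 6 pairs of lists. For SETD2 shRNA 1 over control the 5′-most peaks had -0.64 and the 3′-most -0.21, while the second control over the control had -0.49 and -0.52, a larger fall for 3′-most peaks.

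Individual lost peaks are shown because they stood out by p-value in the control list. The best p-value among them, a log10 p of -452, belonged to chr14:94849452-94849601 on the minus strand, where SETD2 shRNA 1 had no peak and the control a fold enrichment of 2.51. METTL3 and METTL14 had 1.63 and 1.70 there, and the other lists had no peak. On chr17:79477592-79477770, minus strand, SETD2 shRNA 1 had no peak and the control 1.68 with a log10 p of -333. METTL3, METTL14, WTAP and the second control had no peak there either, while SETD2 shRNA 2 had 1.1. Very good p-values in the control thus went with low enrichment at both positions.

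Enrichment was larger at chr7:45952979-45953308, on the minus strand. SETD2 shRNA 1 had no peak there, against 6.04 in the control, and its gene had 4 control peaks and none in SETD2 shRNA 1. All of the other lists had a peak, with 6.10 in METTL3, 4.26 in METTL14, 3.09 in WTAP, 2.71 in SETD2 shRNA 2 and 3.05 in the second control. At chr2:3605699-3605967, minus strand, SETD2 shRNA 1 had no peak and the control 13.3, with 10.1 in METTL3, 6.45 in WTAP, none in METTL14 or SETD2 shRNA 2 and 6.87 in the second control.

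A locus at chr17:80207271-80207513 supplied 4 of the 12 lost peaks with the best p-values, under 3 gene identifiers and on both strands, with 8.22 to 8.95 in the control. Neither SETD2 list had a peak there, against 3.79 to 3.88 in the second control. METTL3 had 6.89 to 7.61, METTL14 5.3 to 5.42 and WTAP 6.49 to 6.91. Since nearly equal values stood on both strands, the strand of that signal is uncertain and it is best read as 1 locus.

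**Figure D4:**
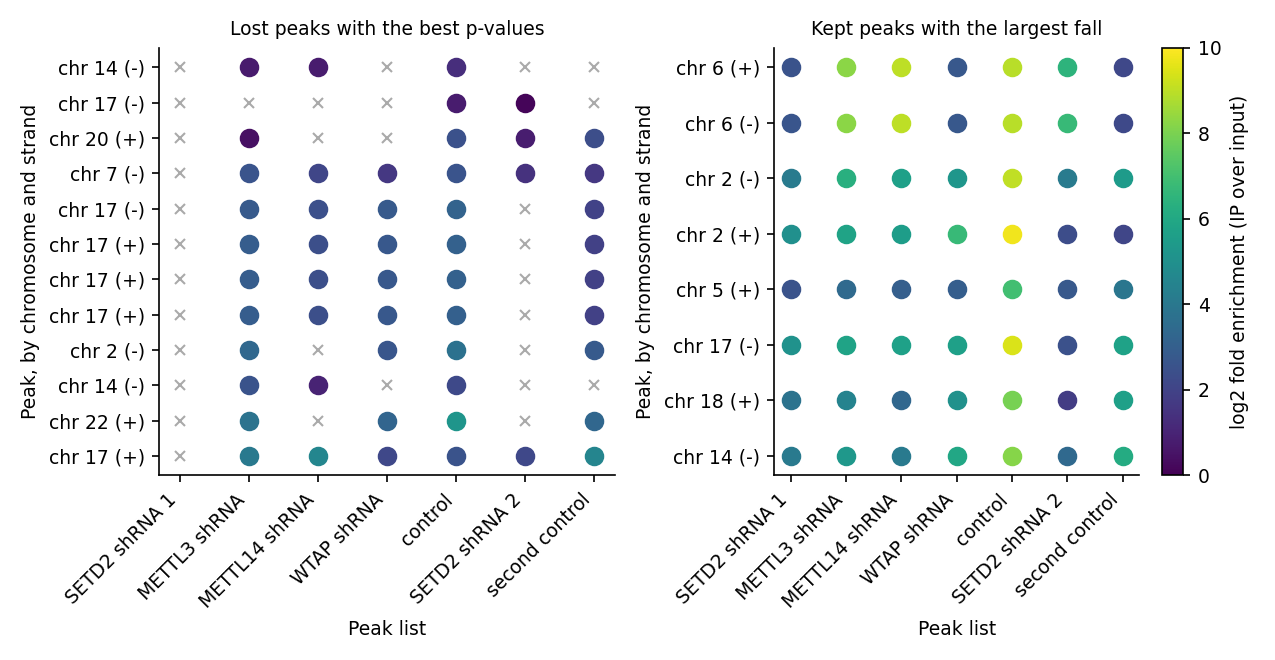
Fold enrichment (colour, log2) in the 7 peak lists (x axis) at the 12 lost peaks with the best p-values (left, by chromosome and strand) and at 8 kept peaks with the largest fall (right), with a cross where no peak was called. The left panel shows a peak of chromosome 7 with values in every list except SETD2 shRNA 1, and the right panel shows control values far above those of SETD2 shRNA 1.

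Gained peaks with very good p-values varied in enrichment, from 1.43 to 13.7 among the 12 best. At chr9:116824988-116835242, minus strand and 3 blocks, SETD2 shRNA 1 had 2.36 with a log10 p of -393 and the control had no peak. METTL3 had 1.61, METTL14 1.45 and the second control 1.21 there, while WTAP and SETD2 shRNA 2 had no peak. At chr1:95441429-95441608, minus strand, SETD2 shRNA 1 had 11.0, in a gene without any control peak, and METTL3, METTL14 and WTAP had 4.46, 2.29 and 7.39, while SETD2 shRNA 2 and the second control had no peak. The highest enrichment of a gained peak, 55.1 in SETD2 shRNA 1, was at chr16:86556312-86556580 on the minus strand, where METTL14 had 23.2, WTAP 14.3 and the control no peak. SETD2 shRNA 2 had none there either.

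Peaks kept with strong p-values could still differ greatly in enrichment. Of the 7657 matched peaks with a log10 p of at most -20 in both lists, the largest fall was at chr6:29795641-29795979, plus strand, with 5.85 in SETD2 shRNA 1 and 486 in control. An overlapping peak on the minus strand had 6.29 and 486, so the strand is uncertain there too. The other lists spread over the same range, with 306 in METTL3, 512 in METTL14, 6.62 in WTAP, 87.7 in SETD2 shRNA 2 and 4.48 in the second control.

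At chr2:11484126-11488396, minus strand, SETD2 shRNA 1 had 17.6 and the control 528. At chr2:3461462-3462173, plus strand, the values were 31.3 in SETD2 shRNA 1 and 891 in control. At chr17:74705582-74707098, minus strand, they were 33.0 in SETD2 shRNA 1 and 687 in control. The METTL3, METTL14 and WTAP lists had 79.7, 49.4 and 38.1 at the first of these, 56.0, 46.4 and 108 at the second, and 55.3, 51.9 and 49.6 at the last, while SETD2 shRNA 2 had 17.2, 5.0 and 5.52 and the second control 43.2, 4.28 and 54.0. At all 3 the control value stood above every other list, the second control included. These peaks were ranked by their fall from that control value, which favours high control values.

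The largest rise was at chr19:45409773-45410068, plus strand, with 26.9 in SETD2 shRNA 1 and 3.66 in control, where METTL3 had 43.0, METTL14 19.8 and WTAP 108. SETD2 shRNA 2 had 2.83 and the second control 4.07, so the second SETD2 shRNA was not higher than its control there. It was followed by chr7:1786517-1786934, plus strand, with 99.9 in SETD2 shRNA 1 and 14.0 in control, 23.3 in METTL3, 23 in METTL14 and 176 in WTAP, and 21.9 in SETD2 shRNA 2 against 13.7 in the second control. At chr16:56642819-56643055, plus strand, SETD2 shRNA 1 had 26.4, above every other list, and the control 6.35, with 11.3 in METTL3, 5.95 in METTL14, 5.01 in WTAP, 3.62 in SETD2 shRNA 2 and 3.96 in the second control.

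Whole genes could change as well. ENSG00000136367.13, on chromosome 14, had 0 peaks in SETD2 shRNA 1 and 11 in control, the most of any gene left without one. It had 6 peaks in METTL3, 10 in METTL14 and 6 in WTAP, and 3 in SETD2 shRNA 2 against 4 in the second control. ENSG00000143631.10, on chromosome 1, had 0 in SETD2 shRNA 1 and 9 in control, but 0 in the second control and 8 in SETD2 shRNA 2, so the 2 SETD2 shRNAs differed in direction there. In the other direction ENSG00000155269.11, on chromosome 4, had 4 peaks in SETD2 shRNA 1 and 0 in control, with 1 in METTL3, 2 in METTL14 and 2 in WTAP, and 0 in SETD2 shRNA 2 against 1 in the second control. ENSG00000163885.11, on chromosome 3, had 3 in SETD2 shRNA 1 and 0 in control, with 3 in each of METTL3, METTL14 and WTAP and 0 in SETD2 shRNA 2 and in the second control. Neither gain was seen with the second SETD2 shRNA. The best log10 p of IP against input in the control list was -7.23 and -5.37 for the first 2 genes, where the list's median was -11.8. In the control class from -3.95 to -7.72, 45.2% of all peaks were lost. For the genes with gains the best log10 p in the SETD2 shRNA 1 list was -11.6 and -6.17, where the median was -11.3.

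Losses were spread over the genome. By chromosome they ranged from 22.5% (20.8 to 24.2%) on chromosome 16 to 32.0% (27.6 to 36.6%) on chromosome 13, and the mix of p-value classes alone gives 23.8% and 31.5% for these. Among 401 windows of 5 Mb with at least 20 control peaks the median share was 27.4%, with quartiles of 22.6% and 32.9%. Only 4 windows exceeded 50%.

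The highest of these windows, chromosome 19 from 20 to 25 Mb, lost 17 of 21 peaks (81.0%), where its p-value classes give 51.7%. Chromosome 9 from 40 to 45 Mb lost 17 of 22 (77.3%, against 48.6% from its classes). Chromosome 12 from 40 to 45 Mb lost 18 of 25 (72.0%, against 51.1%), and 12 of those 18 belonged to a single gene. Peaks of these 3 windows had poor p-values in the control, with a median log10 p of -3.64, -3.40 and -4.12, but median fold enrichments of 8.36, 9.43 and 11.1, above the 6.79 of the whole list. The second control held a peak at 19.0%, 36.4% and 28.0% of them, so most were also missing from a list made without a SETD2 shRNA, and the gene with 12 losses had 0 peaks in the second control. The 95% interval of the highest share ran from 58.1% to 94.6%. It does not allow for the choice of the highest of 401 windows, or for several peaks coming from 1 gene.

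**Figure D5:**
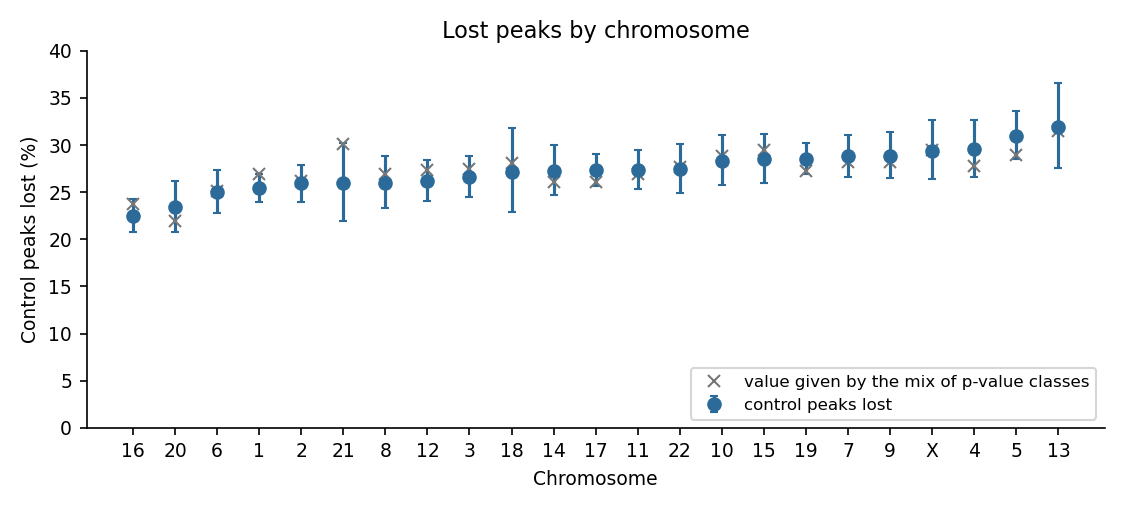
Share of control peaks lost in SETD2 shRNA 1 (percent, y axis) by chromosome (x axis, lowest to highest) with exact 95% intervals, and the share that the chromosome's mix of p-value classes gives (crosses). Chromosome 16 was lowest with 22.5% and chromosome 13 highest with 32.0%.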

How the data were processed

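Per the labels, the authors called m6A peaks with exomePeak on replicates 1 to 3 of IP and input together. TopHat2 2.1.1, FastQC 0.11.5 and the hg19 build are named in the submitters' processing notes. No version of exomePeak and no annotation is given in the sources used here. Per the file headers, each deposited table gives a p-value (headed score), log10 p and log10 FDR. Each also gives the ratio of IP to input as fold enrichment. A shorter deposited list held the peaks with p of at most 1e-05 and fold of at least 2.

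After 16 repeated rows were dropped from each list, same-strand blocks were intersected with bedtools 2.31.1 and summarised in Python 3.11.15 (pandas 2.3.3, numpy 2.4.6, scipy 1.17.1, matplotlib 3.10.9). The matching code was run on the control list against a copy of itself with peaks removed and fold enrichments changed at random. The remaining peaks had identical boundaries in that copy, so the run could not show how matching behaves between separate peak calls. Peaks overlapping 1 peak each way were matched 1 to 1, and positions in a gene follow the control list.

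The peaks and lists were chosen with earlier results of these data known. Named peaks are among the 12 best by p-value and the 8 highest by fold enrichment of the lost and of the gained peaks. Named genes are those with most peaks in 1 list and none in the other. Kept peaks named for a fall or rise were ranked after the data were examined, because ranking by p-value alone picks many peaks with a listed p of 0. Of 15064 gene identifiers 0 were named by the reference table, so planned gene lists, markers and the limit to named genes could not be applied. Alternatives were another overlap, whole spans, a stricter FDR or fold, the shorter lists and either strand.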

Additional observations from a re-analysis of the deposited data

How the results depend on the processing

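The lost share was 27.0% as reported. It was 38.9% when shared bases had to reach 50% of both peaks, 31.8% with a fold enrichment of at least 3, 26.2% with the shorter lists and 25.3% with an FDR of at most 1e-05. The gained share, 8.07% as reported, was 28.1%, 9.82%, 6.82% and 6.17% under the same alternatives, so it depended most on the overlap rule. Control genes left without a peak, 15.1% as reported, were 19.7% with the fold limit, 17.0% with the shorter lists and 16.8% with the FDR limit, and new SETD2 shRNA 1 genes, 3.84% as reported, were 4.76% with the fold limit and 3.21% with the FDR limit. Of matched 3′-most peaks, 13.0% with the fold limit and 7.20% with identical blocks were at least 2-fold lower, and of 5′-most peaks 25.4% with identical blocks. In every alternative run the lost share exceeded the gained share and the 5′-most share exceeded the 3′-most share. Whole spans, either strand and merged overlapping peaks left these values within their counting intervals. Merging, identical blocks and every alternative for the 2 positions were added after the data were examined. The cause of these shifts was not tested. The alternatives for gene lists were not run, because no identifier was named, and the overlap, span and strand rules do not enter the gene counts.

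No paired analysis was possible because each list pools replicates 1 to 3, which also means that no replicate was left out. Read depth is unknown, which limits what absence from a list means.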
